A study of Homo sapiens with 6 samples.

Results

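The genes described here encode the super elongation complex and the factors that hold RNA polymerase II in its paused state: the scaffolds AFF1 and AFF4, the elongation factors ELL and ELL2, the YEATS-domain readers MLLT1 (ENL) and MLLT3 (AF9), the DSIF subunit SUPT5H, and the NELF subunits NELFA, NELFB and NELFCD. They are 10 of the 58096 genes in the count tables and were listed by name, with no cutoff on a measured value, though with earlier results of these data known. All libraries were made from the line ALL-SIL, grown from a T-cell acute lymphoblastic leukaemia. JQ1, which competes with acetylated lysine for BET bromodomains, was given in 3 libraries, and 3 libraries from DMSO (solvent) cells were the controls. The treatment note of every sample, controls included, gives 1 µM JQ1 and 24 h, so titles alone separate the groups and how the controls were handled is not described. Both groups were grown with 20% fetal bovine serum and are the same single cell line, and JQ1 was measured at 1 dose and 1 time. The labels do not say whether replicates were separate cultures, so a p-value speaks for the scatter among these 6 libraries only, and that scatter may be technical.

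Soon after initiation, RNA polymerase II stops close to the start of many genes, held there by DSIF (SUPT5H with SUPT4H1) and NELF. The kinase P-TEFb, a CDK9 and cyclin T pair, phosphorylates NELF, DSIF and the polymerase and so starts productive elongation. NELF then leaves, and DSIF travels on as a positive factor. The super elongation complex carries P-TEFb on an AFF scaffold together with ELL proteins, which suppress polymerase stalling, and with MLLT1 or MLLT3, whose YEATS domains bind acylated histone tails. Several of these genes are fusion partners of KMT2A in acute leukaemia.

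The RNA of NELFCD, the member that moved most, was counted from the gene on chromosome 20 (58981208 to 58995133, GENCODE release 29, GRCh38). The promoters of the NELF members are shown because their log2 changes ran from -0.93 to 0.07 within 1 complex, and that of AFF4 because it was the member called higher. Each runs from 250 bases before to 50 after the RefSeq start (GRCh38.p14), 5′ to 3′ on the gene's strand, and capitals mark every CACGTG, the palindromic E-box bound by MYC and MAX, and every GGGCGG on either strand, the GC box bound by SP1-like factors.

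NELFCD (chr20:58981006-58981305, plus strand): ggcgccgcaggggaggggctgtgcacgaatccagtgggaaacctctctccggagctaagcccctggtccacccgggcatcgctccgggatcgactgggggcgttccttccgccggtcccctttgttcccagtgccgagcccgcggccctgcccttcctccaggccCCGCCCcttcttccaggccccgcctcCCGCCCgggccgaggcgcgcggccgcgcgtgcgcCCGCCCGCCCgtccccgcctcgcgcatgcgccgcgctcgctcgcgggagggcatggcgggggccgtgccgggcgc

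NELFA (chr4:2008925-2009224, minus strand): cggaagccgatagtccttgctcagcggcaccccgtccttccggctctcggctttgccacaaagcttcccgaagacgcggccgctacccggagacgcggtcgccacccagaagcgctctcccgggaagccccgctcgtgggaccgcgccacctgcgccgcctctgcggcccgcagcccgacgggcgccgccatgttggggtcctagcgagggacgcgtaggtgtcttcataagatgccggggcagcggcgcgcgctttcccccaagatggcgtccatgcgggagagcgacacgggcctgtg

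NELFB (chr9:137255077-137255376, plus strand): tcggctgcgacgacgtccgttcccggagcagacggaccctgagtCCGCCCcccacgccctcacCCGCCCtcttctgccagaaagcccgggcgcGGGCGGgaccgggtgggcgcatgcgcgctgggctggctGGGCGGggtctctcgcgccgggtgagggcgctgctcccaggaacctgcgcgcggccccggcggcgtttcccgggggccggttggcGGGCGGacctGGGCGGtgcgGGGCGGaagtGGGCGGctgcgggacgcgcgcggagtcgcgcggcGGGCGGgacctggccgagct

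AFF4 (chr5:132963585-132963884, minus strand): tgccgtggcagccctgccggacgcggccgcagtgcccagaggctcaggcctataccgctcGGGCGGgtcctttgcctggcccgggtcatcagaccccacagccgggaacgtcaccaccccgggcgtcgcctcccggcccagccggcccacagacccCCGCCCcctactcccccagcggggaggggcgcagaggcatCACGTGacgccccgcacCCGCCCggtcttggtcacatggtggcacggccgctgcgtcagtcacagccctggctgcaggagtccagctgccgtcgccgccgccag

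Promoter sequences were matched for 9 of the 10 members, all but ELL2. The GC box occurs 4 times in the NELFCD window, 9 times in that of NELFB, 3 times in that of AFF4 and 0 times in that of NELFA, and 45% of 35116 RefSeq promoters of the same length hold it. Matches of the GC box may overlap each other and share capitals. The E-box is in the windows of AFF4, starting 54 bases before the start, and MLLT1, starting 247 bases before it, and in 7.26% of all such promoters. A match of letters is a description and not a bound site.

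Levels are given in CPM, the standard depth-scaled read count of a gene (here with TMM factors for library size), with the mean ± SD of 3 libraries, and changes as log2 of JQ1 over DMSO ± standard error. A gene was called when edgeR's quasi-likelihood test gave a Benjamini-Hochberg adjusted p under 0.05 over all 13975 genes that passed the filter on low counts. Of the 10 members 9 passed that filter. ELL2 was listed at 0 counts in every library and on both strands, so no level or change is given for it. Of the 9 members, 1 was called higher (AFF4) and 2 lower (NELFCD and NELFA), 3 in all, where 36.6% of all tested genes were called, 15.9% higher and 20.6% lower. The JQ1 and DMSO libraries did not overlap for 5 of the 9, against 48.9% of all tested genes. The members as a group were thus called about as often as any gene, and their median log2 change was 0.07, beside 0.0036 for all tested genes. With the replicate number as a block, 2 members were called higher (AFF4 and MLLT3) and 3 lower (NELFCD, NELFA and MLLT1), 5 of 9, where the same block called 56.9% of all tested genes, 27.3% higher and 29.6% lower. In bulk RNA a lower level in every cell and fewer cells with the RNA cannot be told apart.

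The libraries held 15925885 to 24857219 gene counts under JQ1 and 20391040 to 25293884 under DMSO, and JQ1 replicate 3 was the shallowest. Summed CPM of 8 T-lineage marker genes (CD3D, CD3E, CD3G, CD2, CD5, CD7, LCK and TLX1) ran from 893 to 1138 in JQ1 libraries and from 1471 to 1657 in DMSO libraries, and all 8 passed the filter on low counts. CD2 did so through the DMSO libraries (24, 29 and 49 reads), against 3, 1 and 0 reads in JQ1 replicates 1, 2 and 3. Of the 8, 7 were called lower, where 20.6% of all tested genes were lower and 15.9% higher. The CD7 call was at the threshold (edgeR adjusted p = 0.049), and its groups overlapped. TLX1 was called higher at 249 ± 8.94 CPM under JQ1 and 182 ± 16.0 CPM under DMSO (log2 change 0.45 ± 0.10, edgeR adjusted p = 0.0045). The summed CPM of 5 B-lineage genes was 1.61 to 6.34 under JQ1 and 11.5 to 24.5 under DMSO (CD79A and CD79B passed the filter, MS4A1 was at 0), and that of 3 stromal genes 2.51 to 3.33 under JQ1 and 7.83 to 10.6 under DMSO (PDGFRB passed the filter, COL1A2 was at 0). For 5 myeloid and 3 erythroid genes the sums were at most 0.329 under JQ1 and 0.471 under DMSO, with MPO, HBB and ALAS2 at 0. The part of these marker differences in the results below was not tested.

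NELFCD, whose product is the NELF subunit also known as TH1L, was the clearest change in the set. It had 60.7, 57.4 and 62.4 CPM in JQ1 replicates 1, 2 and 3, against 122, 106 and 116 CPM in DMSO replicates 1, 2 and 3. Every JQ1 library lay far below every DMSO library, and replicates within a group were close. The mean was 60.2 ± 2.57 CPM under JQ1 and 114 ± 7.93 CPM under DMSO (SD, n = 3 each), a fall of 47.4% (log2 change -0.93 ± 0.09, 95% interval -1.12 to -0.73, edgeR adjusted p = 4.6e-05). This was larger in size than the change of 87.1% of tested genes. The raw counts were 1503, 1222 and 968 under JQ1 and 2471, 2698 and 3049 under DMSO, so counting error is small beside the difference. Matched by replicate number, the log2 difference was -1.003, -0.89 and -0.89. The call held under all 17 alternatives, with log2 changes from -0.99 to -0.88, and NELFCD remained called when tested against a fold change of 1.5 (edgeR adjusted p = 0.006).

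NELFA, the NELF subunit that contacts the polymerase, was also called lower. It had 29.1, 26.5 and 32.3 CPM in JQ1 replicates 1, 2 and 3, against 36.4, 33.2 and 38.8 CPM in DMSO replicates 1, 2 and 3. The groups were apart by a small margin, with the highest JQ1 library (replicate 3) just under the lowest DMSO library (replicate 2). In all 3 pairs of the same number the JQ1 library was lower, by log2 differences of -0.32, -0.33 and -0.27. The mean was 29.3 ± 2.91 CPM under JQ1 and 36.2 ± 2.83 CPM under DMSO (log2 change -0.31 ± 0.11, 95% interval -0.55 to -0.07, edgeR adjusted p = 0.048). That call sits at the threshold and was lost in 11 of 17 alternatives. Among these were the fits without JQ1 replicate 1 (-0.30, edgeR adjusted p = 0.11) or JQ1 replicate 2 (-0.24, 0.15). Others were those without DMSO replicate 1 (-0.30, 0.11) or DMSO replicate 3 (-0.25, 0.14), and DESeq2 (adjusted p = 0.065). The fit with the replicate number as a block kept the call, at an adjusted p of 0.0008. Over all alternatives its adjusted p ran from 0.0008 to 1, the highest being that against a fold change of 1.5.

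NELFB, the subunit that bridges NELFA and NELFCD to NELFE, did not pass the test. It had 74.6, 71.5 and 73.7 CPM in JQ1 replicates 1, 2 and 3, against 73.1, 68.4 and 67.9 CPM in DMSO replicates 1, 2 and 3. The groups overlapped, DMSO replicate 1 lying among the JQ1 libraries. Its log2 change was 0.07 ± 0.08 (edgeR adjusted p = 0.52), with a 95% interval from -0.11 to 0.25 that leaves out a fall of the size of NELFCD's. The remaining NELF gene, NELFE, which carries the RNA-binding subunit and was read from the partner list, had 80.6, 100.3 and 99.3 CPM in JQ1 replicates 1, 2 and 3, against 108, 121 and 122 CPM in DMSO replicates 1, 2 and 3. Its groups did not overlap, and it fell by 0.33 ± 0.10 on the log2 scale (edgeR adjusted p = 0.031). The NELFE call was lost without JQ1 replicate 1 (-0.23, edgeR adjusted p = 0.12), DMSO replicate 2 (-0.30, 0.09) or DMSO replicate 3 (-0.29, 0.088), within a range of 2e-05 to 1 over its alternatives.

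**Figure D1:**
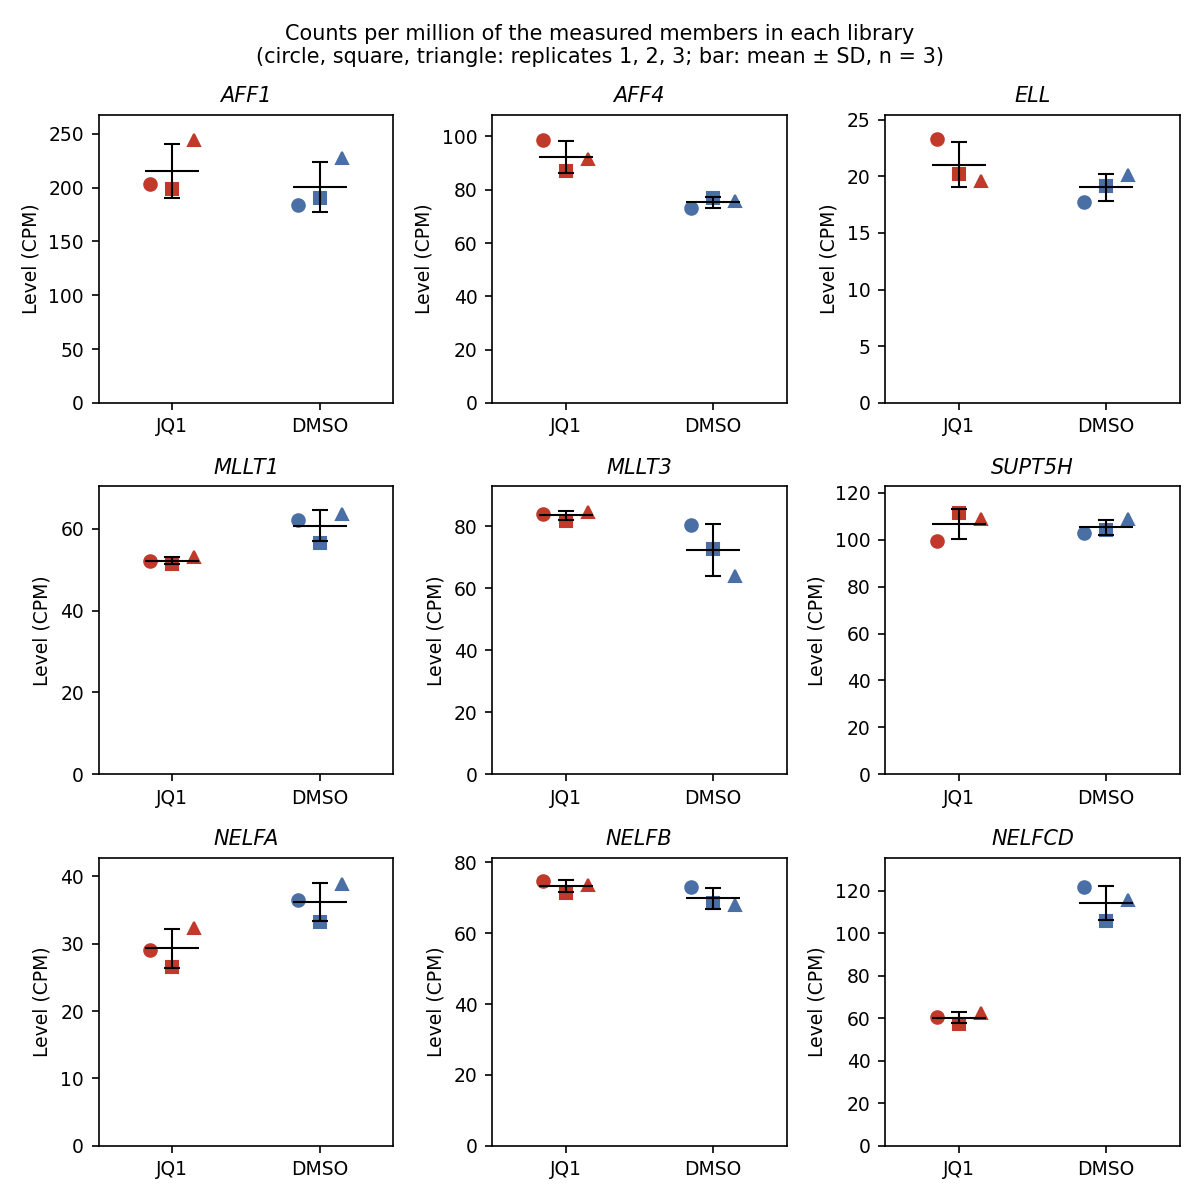
Level in CPM (y axes, from 0) of the 9 measured members in each JQ1 and DMSO library, with symbols for replicates 1 to 3 and bars for the mean ± SD (n = 3). NELFCD stands at 57.4 to 62.4 CPM in JQ1 libraries and 106 to 122 CPM in DMSO libraries, while NELFB and SUPT5H overlap between groups.

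Ratios of 2 members within a library need no scaling between libraries, and so show unequal change directly. Scaled by exon length, NELFCD stood to NELFB at 0.349, 0.344 and 0.362 in JQ1 replicates 1, 2 and 3, against 0.713, 0.664 and 0.729 in DMSO replicates 1, 2 and 3. The ratio was lower in every JQ1 library, and JQ1 libraries agreed closely with each other. The log2 ratio of their counts averaged -0.29 ± 0.04 under JQ1 and 0.71 ± 0.07 under DMSO, a difference of -0.996, or 0.501-fold (2-sided exact permutation p = 0.1, adjusted p = 0.15 over 6 ratios). With 3 libraries against 3, 0.1 is the smallest p that this exact test can give. NELFCD to NELFA differed by -0.62 and NELFA to NELFB by -0.38, each with separate groups and the same exact permutation p = 0.1 (adjusted p = 0.15). SUPT5H to NELFB differed by -0.05 (exact permutation p = 0.6), and its sign turned without JQ1 replicate 1. The planned ratio of ELL to ELL2 was not formed, since ELL2 was listed at 0.

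**Figure D2:**
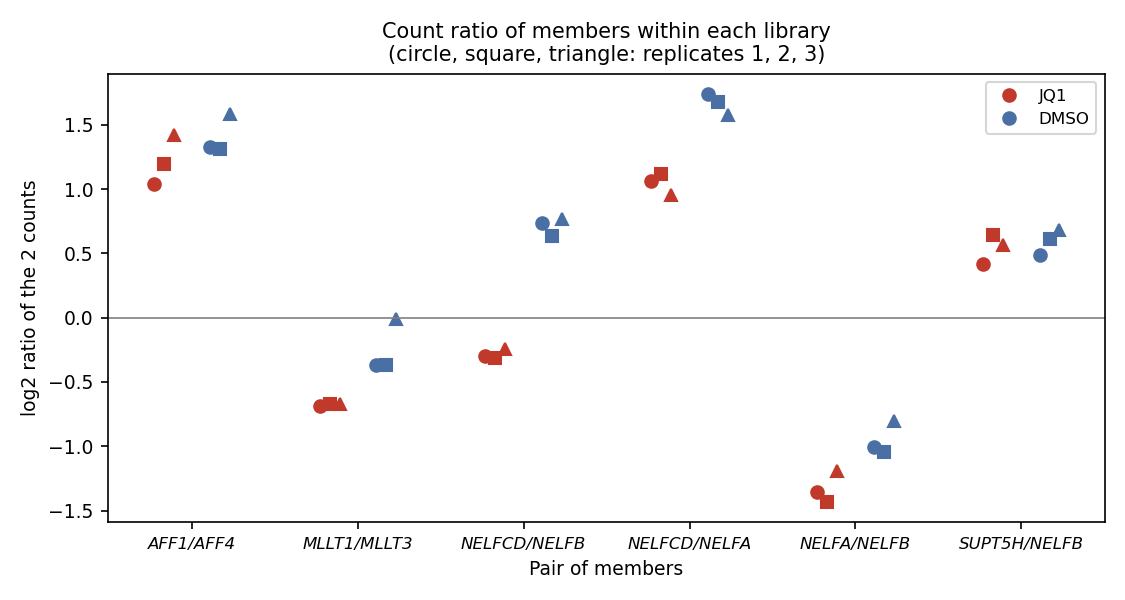
Log2 ratio of the counts of 2 members within each library (y axis) for 6 pairs (x axis), JQ1 in red at the left of each pair and DMSO in blue at the right, with symbols for replicates 1 to 3. The NELFCD/NELFB ratios lie near -0.29 under JQ1 and near 0.71 under DMSO, and the AFF1/AFF4 and SUPT5H/NELFB ratios overlap between groups.

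SUPT5H, the large DSIF subunit and a target of P-TEFb (chromosome 19, 39436156 to 39476670), did not pass the test. It had 99.6, 112 and 109.0 CPM in JQ1 replicates 1, 2 and 3, against 103, 104 and 109 CPM in DMSO replicates 1, 2 and 3. All DMSO libraries lay within the range of the JQ1 libraries, of which replicate 1 was the lowest. The log2 change was 0.02 ± 0.08 (95% interval -0.16 to 0.20, edgeR adjusted p = 0.88), and its sign turned under plain library-size scaling (-0.045) and without JQ1 replicate 2 (-0.014). Its small DSIF partner SUPT4H1, from the list of partners, was called higher at 88.9, 97.8 and 98.0 CPM in JQ1 replicates 1, 2 and 3, against 77.5, 68.0 and 66.0 CPM in DMSO replicates 1, 2 and 3 (log2 change 0.43 ± 0.09, edgeR adjusted p = 0.0048). All JQ1 libraries lay above all DMSO libraries. The opposite strand there held 131 reads over the JQ1 libraries and 766 over the DMSO libraries, 7.63% of the reads of both strands. When strand was ignored, the log2 change of SUPT4H1 was 0.29 (edgeR adjusted p = 0.039), and the cause of this smaller change was not tested. The difference between the SUPT5H and SUPT4H1 changes was not tested.

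Among the super elongation complex members, AFF4, the scaffold that binds P-TEFb and ELL proteins (chromosome 5, 132875379 to 132963634), was called higher. It had 98.8, 87.0 and 91.5 CPM in JQ1 replicates 1, 2 and 3, against 73.0, 76.9 and 75.8 CPM in DMSO replicates 1, 2 and 3. All JQ1 libraries were above all DMSO libraries, with JQ1 replicate 1 the highest. The mean was 92.4 ± 5.97 CPM under JQ1 and 75.2 ± 1.97 CPM under DMSO, a rise of 22.9% (log2 change 0.30 ± 0.08, 95% interval 0.11 to 0.48, edgeR adjusted p = 0.018). The call was lost without JQ1 replicate 1 (0.25, edgeR adjusted p = 0.078), without DMSO replicate 1 (0.28, 0.054) and under plain library-size scaling (0.24, 0.069), in a range of 0.00018 to 1 over its alternatives.

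AFF1, the paralogous scaffold and a KMT2A fusion partner also named AF4 (chromosome 4, 86935002 to 87141054), did not pass the test. It had 204, 199 and 244 CPM in JQ1 replicates 1, 2 and 3, against 184, 191 and 227 CPM in DMSO replicates 1, 2 and 3. The groups overlapped, and the libraries numbered 3 were the highest of both groups. The JQ1 library was the higher in each of the 3 numbered pairs, by log2 differences of 0.15, 0.06 and 0.11, and the log2 change was 0.10 ± 0.12 (95% interval -0.15 to 0.36, edgeR adjusted p = 0.52). The AFF1 to AFF4 count ratio on the log2 scale averaged 1.22 ± 0.19 under JQ1 and 1.41 ± 0.15 under DMSO, a difference of -0.19 with overlapping groups (exact permutation p = 0.3, adjusted p = 0.36). By number, the log2 ratio was 1.04, 1.19 and 1.42 in JQ1 replicates 1, 2 and 3, against 1.33, 1.31 and 1.58 in DMSO replicates 1, 2 and 3. It was lower under JQ1 in all 3 pairs, where the exact sign-flip test gave p = 0.25, the smallest possible with 3 pairs.

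The other genes of the AFF family were read from the partner list. AFF3, a lymphoid nuclear protein, had 2.75, 3.004 and 1.42 CPM in JQ1 replicates 1, 2 and 3, against 11.8, 17.4 and 17.05 CPM in DMSO replicates 1, 2 and 3. The 68, 64 and 22 reads under JQ1 were far fewer than the 240, 442 and 450 under DMSO, and AFF3 fell by 2.66 ± 0.25 on the log2 scale (edgeR adjusted p = 5.6e-05). AFF2, known from the FRAXE fragile site, had 63.4, 69.7 and 62.7 CPM in JQ1 replicates 1, 2 and 3, against 74.8, 83.9 and 77.3 CPM in DMSO replicates 1, 2 and 3. Its groups were separate and it fell by 0.27 ± 0.09 (edgeR adjusted p = 0.033). The AFF2 call was lost without JQ1 replicate 1 (-0.25, edgeR adjusted p = 0.11), JQ1 replicate 3 (-0.24, 0.11), DMSO replicate 2 (-0.22, 0.13) or DMSO replicate 3 (-0.28, 0.061) and with DESeq2 (adjusted p = 0.053), in a range of 0.0004 to 1 over its alternatives. Of the 4 AFF genes, 1 was thus called higher, 2 lower and 1 in neither direction. Of all tested genes 15.9% were called higher and 20.6% lower.

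MLLT1 and MLLT3 are paralogous readers, of which a super elongation complex holds one at a time, MLLT1 on chromosome 19 (6210379 to 6279948) and MLLT3 on chromosome 9 (20341665 to 20622543). MLLT1 had 52.2, 51.4 and 53.2 CPM in JQ1 replicates 1, 2 and 3, against 62.3, 56.6 and 63.6 CPM in DMSO replicates 1, 2 and 3. MLLT3 had 84.1, 81.9 and 84.7 CPM in JQ1 replicates 1, 2 and 3, against 80.4, 72.8 and 63.9 CPM in DMSO replicates 1, 2 and 3. MLLT1 was lower in all JQ1 libraries and MLLT3 higher, JQ1 replicates were close for each gene, and DMSO replicates of MLLT3 spread the most.

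Neither reader passed the test on its own. The log2 change of MLLT1 was -0.22 ± 0.08 (95% interval -0.41 to -0.03, edgeR adjusted p = 0.066) and that of MLLT3 was 0.21 ± 0.10 (95% interval -0.01 to 0.42, edgeR adjusted p = 0.12). With the replicate number as a block both were called, at adjusted p = 0.0054 for MLLT1 and 0.0077 for MLLT3, in ranges of 0.0054 to 1 and 0.0077 to 1 over their alternatives. MLLT1 was also called under plain library-size scaling (-0.28, edgeR adjusted p = 0.035), and MLLT3 without DMSO replicate 1 (0.29, edgeR adjusted p = 0.049). Their count ratio, MLLT1 over MLLT3 on the log2 scale, was -0.69, -0.67 and -0.67 in JQ1 replicates 1, 2 and 3, against -0.37, -0.36 and -0.0069 in DMSO replicates 1, 2 and 3. The difference in this log2 ratio was -0.43 (exact permutation p = 0.1, the smallest possible, adjusted p = 0.15), and DMSO replicate 3 stood apart from the other DMSO libraries.

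ELL, the elongation factor that was first found as a KMT2A partner (chromosome 19, 18442663 to 18522127), was the least abundant measured member in CPM. It had 23.3, 20.2 and 19.6 CPM in JQ1 replicates 1, 2 and 3, against 17.8, 19.2 and 20.2 CPM in DMSO replicates 1, 2 and 3. The groups overlapped, and the log2 change was 0.14 ± 0.11 (95% interval -0.11 to 0.40, edgeR adjusted p = 0.35). ELL3, the testis-enriched paralog, had 5 to 8 reads in JQ1 libraries and 10 to 18 in DMSO libraries and did not pass the filter on low counts, and 60.1% of the reads of both strands there were on the opposite strand. Of the ELL-associated factors, EAF2 rose and EAF1 did not pass the test. EAF2 had 5.21, 3.38 and 4.45 CPM in JQ1 replicates 1, 2 and 3, against 2.41, 2.003 and 2.96 CPM in DMSO replicates 1, 2 and 3. The EAF2 groups did not overlap (log2 change 0.82 ± 0.24, edgeR adjusted p = 0.02), but the call was lost without JQ1 replicate 1 (0.66, edgeR adjusted p = 0.086), DMSO replicate 1 (0.81, 0.053) or DMSO replicate 2 (0.69, 0.076), in a range of 0.00033 to 0.37 over its alternatives. EAF1 had a log2 change of 0.07 ± 0.09 (95% interval -0.12 to 0.26, edgeR adjusted p = 0.56).

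**Figure D3:**
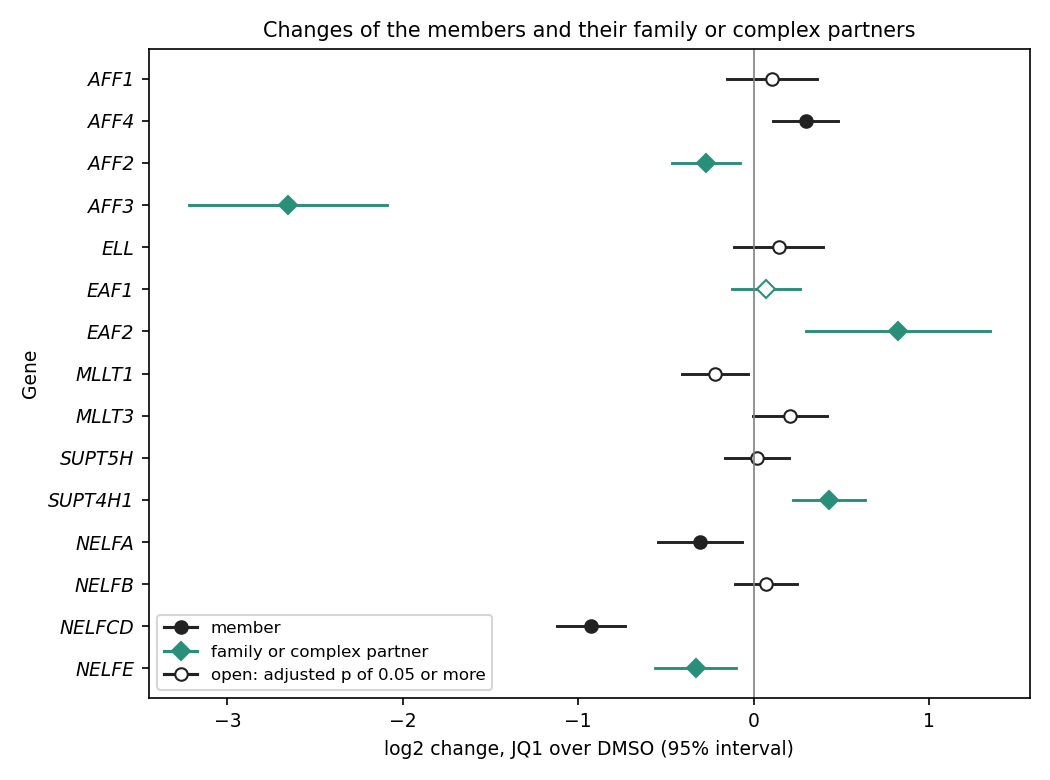
Log2 change of JQ1 over DMSO (x axis) with its 95% interval for the 9 measured members (black circles) and 6 family or complex partners (green diamonds), filled where the adjusted p was under 0.05. AFF3 at -2.66 and NELFCD at -0.93 lie lowest, EAF2 at 0.82 highest, and the interval of SUPT5H spans 0.

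To compare levels between genes, counts were divided by exon length and scaled to TPM, a length-corrected abundance with the same total in each library. These values carry no TMM factor, so they serve to order genes within a group and not to read the JQ1 change. Under JQ1 the members ordered from low to high as ELL (11.2 ± 1.55 TPM), NELFA (12.9 ± 1.51), AFF4 (21.4 ± 2.38), NELFCD (24.9 ± 1.88), MLLT3 (26.8 ± 1.56), MLLT1 (28.8 ± 1.51), SUPT5H (32.4 ± 0.508), AFF1 (52.4 ± 6.13) and NELFB (70.9 ± 4.72 TPM). Under DMSO the order was ELL (11.1 ± 1.18 TPM), NELFA (17.5 ± 2.25), AFF4 (19.1 ± 1.13), MLLT3 (25.4 ± 2.12), SUPT5H (35.2 ± 2.86), MLLT1 (36.8 ± 3.96), NELFCD (52.1 ± 5.10), AFF1 (53.7 ± 9.06) and NELFB (74.1 ± 3.84 TPM). Libraries of neighbours in the order overlapped under JQ1 for ELL and NELFA, AFF4 and NELFCD, NELFCD and MLLT3, and MLLT3 and MLLT1. Under DMSO they overlapped for NELFA and AFF4, SUPT5H and MLLT1, and NELFCD and AFF1, and in each group the libraries of the other neighbours were apart. NELFCD took the fourth place from the bottom under JQ1, against the seventh under DMSO, beside AFF1. Exon length is that of all annotated transcripts together, so genes with many partial transcripts read low on this scale. For NELFA and NELFB the identifier version did not match the annotation, so their lengths, and with them their places, are less certain. The length-scaled ratio of NELFCD to NELFB shares this limit, which acts alike in every library.

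Reads on the opposite strand were at most 2.85% of the reads of both strands for the 9 members, the highest share being at NELFA. The exons of ELL overlap an antisense gene by 473 bases, and 0 opposite-strand reads under JQ1 and 5 under DMSO lay at ELL. The 3 genes with a mean of at least 10 CPM whose log2 CPM followed that of NELFCD most closely over the 6 libraries were RNASEH2B, DCPS and XPOT, each with a Pearson r of 0.999. The correlation is a description over 6 libraries in 2 groups, picked as the highest among 8676 genes. RNASEH2B, a subunit of ribonuclease H2, had 174 CPM under JQ1 and 247 under DMSO, DCPS, the scavenger decapping enzyme, had 7.33 CPM under JQ1 and 18.3 under DMSO, and XPOT, the tRNA export receptor, had 176 CPM under JQ1 and 298 under DMSO.

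The other genes of the elongation pathway were read from 7 lists of 55 genes, of which 54 passed the filter. Of these 54, 11 were higher and 12 lower, with a median log2 change of 0.07, beside 15.9% higher and 20.6% lower of all tested genes. With the replicate number as a block 19 were higher and 17 lower, beside 27.3% higher and 29.6% lower of all tested genes under that block. Of the 6 tested partners of the members described above, 2 rose and 3 fell. In the P-TEFb list 2 of 7 genes rose and 1 fell. The kinase gene CDK9 had 41.6 ± 1.92 CPM under JQ1 and 29.3 ± 0.631 CPM under DMSO (log2 change 0.51 ± 0.09, edgeR adjusted p = 0.0016), and HEXIM1, which inhibits P-TEFb within the 7SK particle, rose by 1.59 ± 0.21 (edgeR adjusted p = 0.00066). Its paralog HEXIM2 fell by 1.47 ± 0.23 at 1.38 ± 0.275 CPM under JQ1 and 3.89 ± 0.342 CPM under DMSO, with 48.6% of the reads of both strands on the opposite strand and a log2 change of -0.27 (edgeR adjusted p = 0.42) when strand was ignored.

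The cyclin genes CCNT1 (log2 change 0.14 ± 0.09, edgeR adjusted p = 0.23) and CCNT2 (0.07 ± 0.08, 0.53) did not pass the test, nor did the 7SK proteins LARP7 (-0.18 ± 0.09, 0.14) and MEPCE (0.23 ± 0.11, 0.14). The block called LARP7 lower (edgeR adjusted p = 0.019) and MEPCE higher (0.0027), and LARP7 was called lower under plain library-size scaling (0.044). HEXIM1 CPM was 109, 87.4 and 71.2 in JQ1 replicates 1, 2 and 3, against 36.4, 30.8 and 22.2 in DMSO replicates 1, 2 and 3, so the libraries of the same number ranked alike in both groups.

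In the PAF complex, which rides with elongating polymerase, 2 of 6 genes rose and 1 fell, beside 15.9% higher and 20.6% lower of all tested genes. Under the block 3 PAF genes were higher and 1 lower, beside 27.3% higher and 29.6% lower of all tested genes. RTF1 rose by 0.56 ± 0.08 (edgeR adjusted p = 0.00062) and the scaffold CTR9 by 0.41 ± 0.11 (0.013), while LEO1 fell by 0.43 ± 0.11 (0.0099). CTR9 was no longer called without JQ1 replicate 1 (0.33, edgeR adjusted p = 0.055, range 1.2e-06 to 1 over its alternatives). The DOT1L complex, which methylates histone H3 within genes and which MLLT1 and MLLT3 also join, had 2 of 3 genes lower and 0 higher. Of all tested genes 20.6% were lower and 15.9% higher. Under the block all 3 DOT1L list genes were lower, where 29.6% of all tested genes were lower. MLLT6 (AF17) had 97.9 ± 8.56 CPM under JQ1 and 199.7 ± 10.2 CPM under DMSO (log2 change -1.03 ± 0.09, edgeR adjusted p = 4.3e-05), with JQ1 libraries at 99.8, 105 and 88.6 and DMSO libraries at 209, 201 and 189 CPM. MLLT10 (AF10) fell by 0.38 ± 0.08 (edgeR adjusted p = 0.0036).

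In the little elongation complex, which shares ELL proteins and serves small nuclear RNA genes, ICE2 was the 1 of 3 genes called, lower by 0.24 ± 0.09 at the threshold itself (edgeR adjusted p = 0.05 after rounding). That call was lost in 11 of 17 alternatives, among them the fits without each library but JQ1 replicate 3 (-0.25 to -0.19, edgeR adjusted p from 0.088 to 0.16). Of 12 other elongation factors 1 rose and 2 fell, beside 15.9% higher and 20.6% lower of all tested genes. SSRP1, a subunit of the histone chaperone FACT, fell by 0.64 ± 0.11 (edgeR adjusted p = 0.0014), and TCEA2, a TFIIS gene, by 0.77 ± 0.21 (0.017). The TCEA2 call was lost without DMSO replicate 3 (-0.58, edgeR adjusted p = 0.064, range 7.2e-07 to 0.43 over its alternatives). CCNK, the cyclin of CDK12 and CDK13, had 30.6, 27.2 and 30.9 CPM in JQ1 replicates 1, 2 and 3, against 21.6, 24.1 and 24.1 CPM in DMSO replicates 1, 2 and 3. It rose by 0.35 ± 0.10 (edgeR adjusted p = 0.025), with 14.4% of the reads of both strands on the opposite strand. The CCNK call was lost without JQ1 replicate 1 (0.32, edgeR adjusted p = 0.078), JQ1 replicate 3 (0.31, 0.077) or DMSO replicate 1 (0.30, 0.083), under plain library-size scaling (0.28, 0.077) and when strand was ignored (0.31, 0.11), in a range of 0.00069 to 1 over its alternatives. Under the block 4 of these factors were higher and 2 lower, where 27.3% of all tested genes were higher and 29.6% lower.

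Integrator, which cuts nascent RNA at paused polymerase, and the termination factors had 4 of 17 genes higher and 2 lower. Of all tested genes 15.9% were higher and 20.6% lower. Under the block 7 of the 17 were higher and 5 lower, where 27.3% of all tested genes were higher and 29.6% lower. INTS8 had 162 ± 3.60 CPM under JQ1 and 97.4 ± 7.35 CPM under DMSO (log2 change 0.74 ± 0.09, edgeR adjusted p = 0.00016), with 39.3% of the reads of both strands on the opposite strand. INTS7 rose by 0.52 ± 0.09 (edgeR adjusted p = 0.0016) and INTS15 by 0.49 ± 0.09 (0.0023). No list was tested as a whole.

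**Figure D4:**
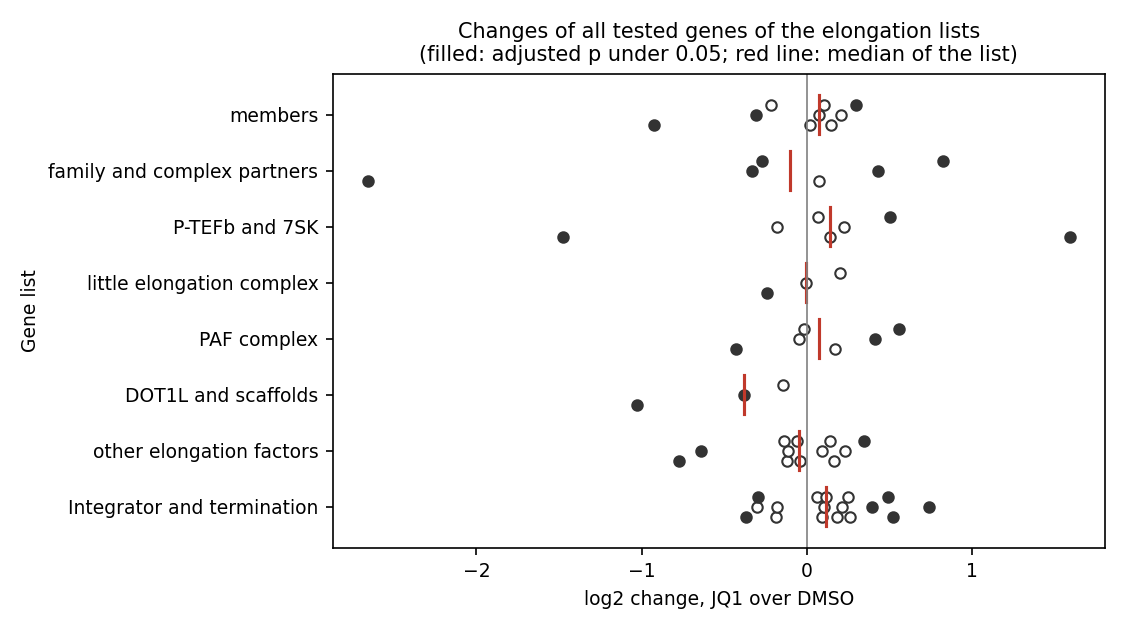
Log2 change of JQ1 over DMSO (x axis) for the 9 measured members and the 54 tested genes of 7 elongation lists (rows), filled where the adjusted p was under 0.05, with the median of each list as a red line. Genes called higher and lower stand side by side in the lists of partners, P-TEFb, PAF, other elongation factors and Integrator.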

How the data were processed

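Gene counts of 6 stranded total RNA libraries were analysed. The deposited files hold raw counts of reads per gene in 3 columns (both strands together and each strand), and the submitters' processing notes name the build GRCh38. Which aligner and gene annotation the authors used was not stated in these sources. The read classes that name no gene (unmapped, multiple, no feature, ambiguous) stayed out of totals; no feature took 18.8 to 26.1% of a library's reads. Since the layout separates multiple and ambiguous reads from the gene counts, reads placed in those classes are not in them. The strand column holding 20.9 to 22.6 times the counts of the other was used, as the kit is stranded per the labels. Identifiers were matched to GENCODE release 29 (53747 of 58096 with version, 57492 without), and gene positions are printed where the version matched. Promoters are from RefSeq, GRCh38.p14.

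Genes were filtered with filterByExpr (minimum count 10, minimum total 15), scaled by TMM and tested by group with the robust quasi-likelihood F test of edgeR 4.0.16 (glmQLFit, glmQLFTest; R 4.3.3). Benjamini-Hochberg adjustment ran over 13975 genes with a threshold of 0.05. SE was taken as the size of the log2 change over √F, and the 95% intervals use the test's degrees of freedom without adjustment for the number of genes. Count ratios were compared with 2-sided exact permutation tests. TPM used the counts and the summed exon length of GENCODE. Alternatives used DESeq2 1.42.0, limma 3.58.1 (voom), other scalings and filters, unstranded counts, a test against 1.5-fold, each library left out and a replicate block. The fit was tested on simulated counts, where it called 71% of 100 genes changed 2-fold and 26% of 100 genes changed 1.5-fold. It called 0.0581% of the 13775 unchanged genes. Far fewer genes were changed there than the 36.6% called in the data, so these shares may not carry over. Named genes were the members, the partner and P-TEFb lists, those of the 3 smallest p in each other list that passed the test, and the 3 genes closest to NELFCD. Some list genes are not reported here. Members and lists were chosen with earlier results of these data known.

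Libraries of the same number deviated together from their group means (correlations across genes 0.33, 0.43 and 0.37 for numbers 1, 2 and 3). For libraries of different numbers the correlations were -0.25 to -0.14. Deviations from a group mean cancel within the group, so these correlations are not independent of each other. Libraries of the same number may therefore be pairs, but this comes from the data alone, since no label explains the numbers. The main calls and the exact permutation tests do not use the pairing, and the replicate block and the sign-flip tests do. Within each group every pair of libraries differed by more than sampling noise (chi-square per degree of freedom 15.4 to 31.9).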

Additional observations from a re-analysis of the deposited data

How the results depend on the processing

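With the number as a replicate block, 2 members were higher and 3 lower, 19 pathway list genes were higher, and 3813 of all tested genes were higher and 4133 lower, in place of 2227 and 2883. Same-numbered count ratios differed as in the group comparison, for example -0.996 for NELFCD to NELFB (exact sign-flip p = 0.25, the smallest possible). Against a fold change of 1.5, 0 members were higher and 1 lower (NELFCD), 1 pathway list gene was higher and 3 lower, and 246 of all genes were higher and 899 lower. With library size as the only scaling, 0 members were higher and 3 lower. Of all 13975 tested genes 1697 were then higher and 3245 lower, and log2 changes moved by a median of -0.063. With DESeq2 size factors in edgeR, DESeq2 itself, upper-quartile factors, a filter of 1 CPM or more in 3 or more libraries, counts of both strands, or mitochondrial and small RNA genes left out, 1 member was lower, since NELFA missed the threshold (log2 changes -0.30 to -0.29). Under these settings 2686 to 2932 of all genes were lower and 2108 to 2393 higher, with 12187 to 16209 genes tested. Leaving out 1 library gave 0 to 1 members higher and 1 to 2 lower, 8 to 13 and 8 to 11 pathway list genes, and 1707 to 1901 and 2436 to 2627 of all genes. Signs turned for SUPT5H with library size only (-0.045) and without JQ1 replicate 2 (-0.014; -0.014 to 0.070 over left-out libraries), and for the SUPT5H to NELFB log2 ratio without JQ1 replicate 1 (0.011; range over left-out libraries -0.10 to 0.011). The ratio of ELL to ELL2 could not be formed. With 3 libraries a group, the 95% intervals of members that did not pass the test, such as AFF1, ELL and NELFB, still reached log2 changes of 0.36, 0.40 and 0.25. The cause of the lost or gained calls and turned signs was not tested.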
